A study of Mus musculus with 2 samples.

Results

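The genes described here are 8 stromal factors that bone and marrow stroma use to hold blood-forming cells or to steer osteoclasts. They are the niche factors Cxcl12, Kitl and Angpt1 with the niche-cell receptor Lepr, and the osteoclast-regulating factors Csf1, Il34, Tnfsf11 and Tnfrsf11b. They were taken by name from the deposited expression table of 24866 genes, and all 8 were in it. Their levels were read in 653 single-cell wells of 658. These were the wells with at least 500 detected genes and at most 20% mitochondrial counts. The wells held mGFP-positive cells sorted from the femurs of C57/B6 mice at postnatal day 6 that carried Ctsk-Cre and the mTmG reporter. In such mice Cre made from the Ctsk (cathepsin K) promoter switches a cell and its descendants to membrane GFP for good. The label therefore marks past or present Ctsk promoter activity, and not one cell type. Both animals came from the same litter and carried the same alleles, and each filled 1 plate (318 wells kept for animal 1 and 335 for animal 2). There was no reporter-negative or untreated group, so every comparison is between classes of wells. Animal and plate cannot be told apart.

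CXCL12 is a chemokine that keeps haematopoietic stem cells and B-cell progenitors in the marrow, and KITL, the ligand of KIT, sustains the same stem cells. Angiopoietin 1 is the agonist of the endothelial receptor TEK. The leptin receptor marks perivascular stromal cells of adult mouse marrow that are rich in CXCL12. Osteoclasts form from myeloid precursors that receive a survival signal through CSF1R, for which CSF1 and IL34 are both ligands, and a differentiation signal from RANKL, the product of Tnfsf11. Osteoprotegerin, the product of Tnfrsf11b, is a soluble decoy that captures RANKL.

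The table held a median of 109279 counts per kept well (9767 to 675621) and a median of 2181 detected genes. Wells were sorted into 8 classes from marker genes that did not include the 8 factors, so the factors played no part in making the classes. A class took the name of the list it raised most on average, and only where at least 3 markers of that list were raised. Class 1 was chondrocyte-like (157 wells, led by Matn3, Ucma and Epyc), class 2 synovial and articular-like (129 wells, led by Cytl1 and Prg4) and class 4 periosteal-like (82 wells, led by Crabp1, Megf6 and Tnn). Class 5 was Cd34 fibroblast-like (59 wells, led by Ly6c1, Ly6a and Efhd1), class 6 tendon and ligament-like (58 wells, led by Kera, Ptx4 and Tnmd), class 7 osteoblast and osteocyte-like (32 wells, led by Ifitm5, Car3 and Ibsp) and class 8 pericyte and smooth muscle-like (17 wells, led by Acta2 and Myh11). Class 3 (119 wells) was led by Mmp9, Ccl11, Ifitm1, Abca8a, Cldn1 and Lpl. The list it raised most on average was that of marrow stromal cells and adipocytes, but only 2 of its genes were raised, Lpl and Cebpa, which was too few for a name. It also raised 3 of 10 markers of Cd34 fibroblasts, Cd34, Dpt and Mfap5, of which class 5 raised 9. None of those 3 was among its leading genes. Blood-cell markers were near absent from the wells. No gene of the macrophage, osteoclast, neutrophil, erythroid, lymphoid or megakaryocyte list reached 5 counts in 5% of wells, and the highest was the osteoclast phosphatase gene Acp5 at 4.90%. Ctsk itself reached 5 counts in 257 wells.

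The counts of the 8 factors were sparse. A well is called positive for a gene below when it held at least 5 counts of it, and levels are given as CPM, the counts per 1000000 counts of the summed wells of a class in 1 animal. Cxcl12 was positive in 100 wells (15.3% of 653), Tnfrsf11b in 69 (10.6%), Csf1 in 35 (5.36%), Kitl in 30 (4.59%), Angpt1 in 30 (4.59%), Lepr in 22 (3.37%), Il34 in 12 (1.84%) and Tnfsf11 in 9 (1.38%). At least 1 factor was found in 225 wells, and 428 wells had none. With so few positive wells a single well can carry much of a class. The 3 wells with the most counts held 37.8% of all Cxcl12 counts, 54.8% of all Tnfsf11 counts and 10.4% of all Tnfrsf11b counts. Whether duplicate reads of one molecule were collapsed is not given in the sources used here, so intervals below cover counting error only.

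The upstream sequences of the most often detected niche factor and of the rarest osteoclast factor are shown because these genes stand at the ends of that range and differ in their core promoter letters. Cxcl12 lies on chromosome 6 (117168535 to 117181367, plus strand, mm10) and Tnfsf11 on chromosome 14 (78277445 to 78308043, minus strand), both protein-coding in the GENCODE M21 annotation. Each sequence is the 250 bases before the start in RefSeq (GRCm38.p6), at chr6:117168285-117168534 on the plus strand and chr14:78308044-78308293 on the minus strand. Capitals mark GGGCGG (the GC box) or TATAAA (the TATA box) on either strand, with overlapping matches counted separately.
Cxcl12: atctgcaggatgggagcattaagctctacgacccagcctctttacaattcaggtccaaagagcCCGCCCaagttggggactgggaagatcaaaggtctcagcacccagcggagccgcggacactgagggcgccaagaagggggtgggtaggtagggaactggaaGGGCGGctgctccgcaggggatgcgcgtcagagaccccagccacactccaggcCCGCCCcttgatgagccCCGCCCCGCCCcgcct
Tnfsf11: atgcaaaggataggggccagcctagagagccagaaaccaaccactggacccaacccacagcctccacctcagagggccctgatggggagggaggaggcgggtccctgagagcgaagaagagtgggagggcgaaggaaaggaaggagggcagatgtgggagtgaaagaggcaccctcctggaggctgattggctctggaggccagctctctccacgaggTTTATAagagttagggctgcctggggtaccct
The Cxcl12 window held 5 GC boxes and no TATAAA and was 64.4% G and C. The Tnfsf11 window held no GC box and 1 TATAAA and was 60.4% G and C. Of 32851 promoter windows of the same length, 32.7% held a GC box and 12.4% a TATAAA. Promoter entries were found for 5 of the 8 factors. The GC box was present for Cxcl12, Kitl, Lepr and Csf1 and the TATAAA for Kitl and Tnfsf11.

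Cxcl12 was concentrated in class 3, with lower levels in the pericyte and smooth muscle-like and Cd34 fibroblast-like wells and almost none in chondrocyte-like wells. In class 3 it stood at 703 CPM in animal 1 and 622 CPM in animal 2 (mean 662 ± 56.8, SD, n = 2). In class 8 it was 480.3 and 229 CPM, and in class 5 it was 223 and 248 CPM. Both class 3 values were above those of every other class in both animals, while classes 8 and 5 overlapped each other. The osteoblast and osteocyte-like class had 26.1 and 207 CPM, and 1 well gave 85.4% of its counts. The periosteal-like class had 13.5 and 30.5 CPM, the tendon and ligament-like class 30.6 and 11.3 CPM, and the synovial and articular-like class 7.86 and 18.0 CPM. The ranges of these 3 classes over the 2 animals overlapped. Within each animal the periosteal-like class was above the synovial and articular-like class, while the place of the tendon and ligament-like class changed between animals. Chondrocyte-like wells had 0.621 and 0.806 CPM, the lowest of all classes in both animals.

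**Figure D1:**
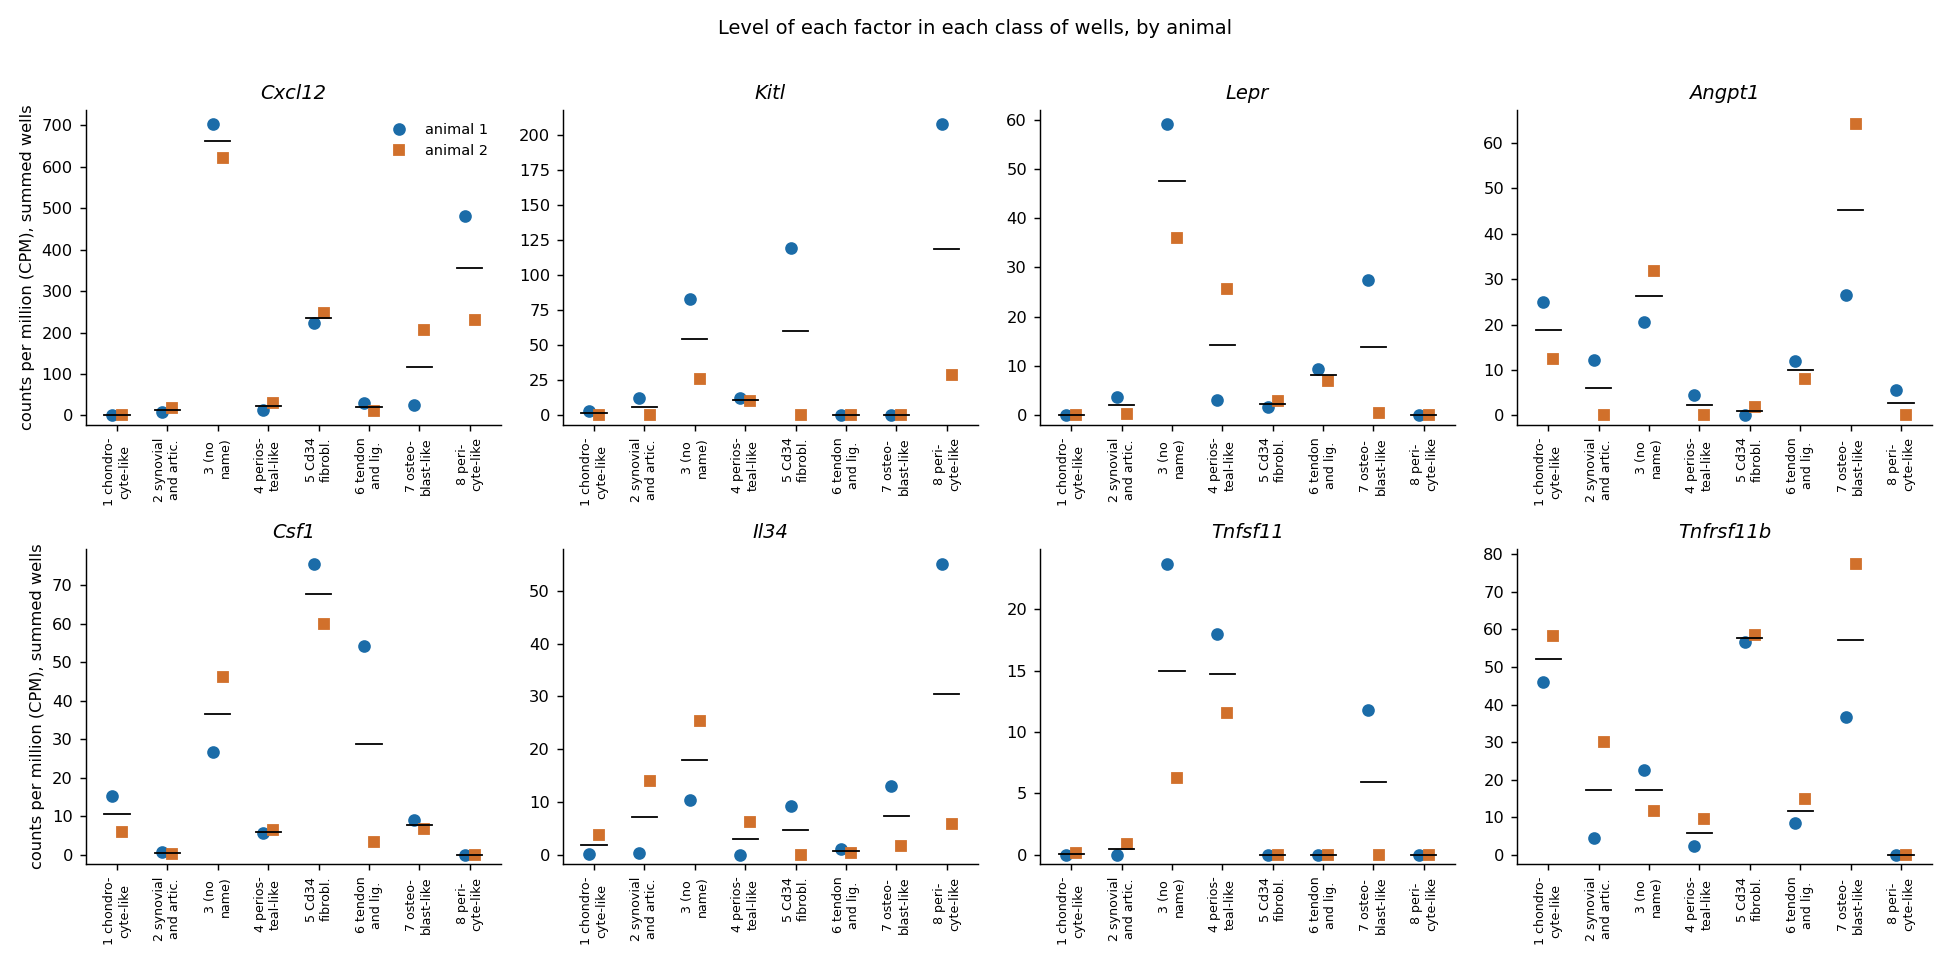
Level of each factor as CPM of summed wells (y axis, linear, own scale per panel) in the 8 classes (x axis). Circles are animal 1, squares animal 2 and bars their mean. Cxcl12 reaches 703 and 622 CPM in class 3, and Tnfsf11 is above 1 CPM in classes 3, 4 and 7 only.

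Positive wells were most frequent in classes 8, 3 and 5. In class 3, 28 of 61 wells of animal 1 were Cxcl12-positive (45.9%, exact 95% interval 33.1 to 59.2%) and 24 of 58 wells of animal 2 (41.4%, 28.6 to 55.1%). After every well was thinned to 20000 counts, 48.3% and 41.4% of class 3 wells still held at least 1 count. In class 5, 10 of 26 and 11 of 33 wells were positive, and in class 8, 10 of 13 and 1 of 4. Class 3 led by level, but class 8 had the larger share of positive wells with both animals pooled (64.7%, against 43.7% in class 3). In animal 2 alone class 3 had the larger share. No chondrocyte-like well was positive (0 of 157, exact 95% upper bound 2.32%), though 14 of them held at least 1 count. Among positive wells of class 3 the level ran between 60.7 and 10414 CPM in animal 1 (median 735) and between 31.2 and 10654 CPM in animal 2 (median 406). Levels thus differed widely among class 3 wells, and wells without a count may have lost the transcript at capture, which was not tested.

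**Figure D2:**
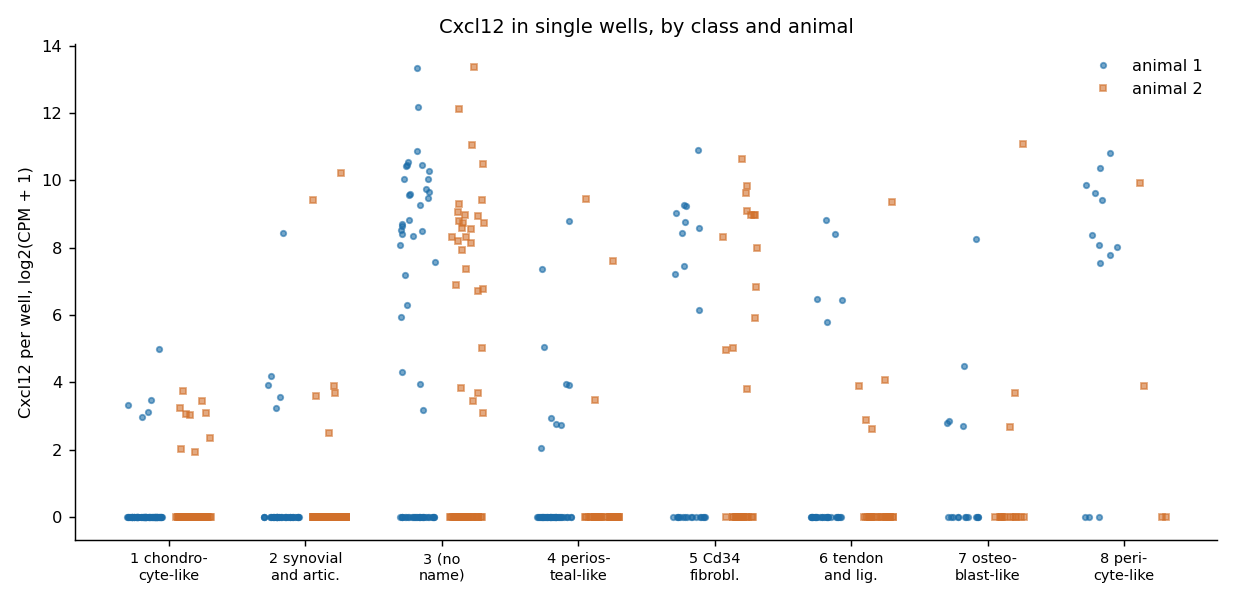
Cxcl12 in each kept well, as log2(CPM + 1) (y axis), by class (x axis). Circles are wells of animal 1 and squares wells of animal 2. Positive wells gather in classes 3, 5 and 8, and no well of class 1 holds 5 counts.

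Of the 8 factors, Cxcl12 alone passed the edgeR test over all classes. That test summed counts per class and animal over the 7 classes with at least 10 wells in each animal and asked whether the class means were equal (edgeR quasi-likelihood F test, Benjamini-Hochberg adjustment over 13635 genes). It called 1 of 8 factors, while 1.66% of all genes tested passed. The adjusted p of Cxcl12 was 0.0126. The others had adjusted p-values of 0.208 (Csf1), 0.220 (Kitl), 0.341 (Tnfrsf11b), 0.419 (Lepr), 0.536 (Tnfsf11), 0.697 (Angpt1) and 0.999 (Il34). In this edgeR F test Csf1, Kitl, Tnfrsf11b and Lepr had an unadjusted p under 0.05, and Tnfsf11, Angpt1 and Il34 did not. After adjustment over the 13635 genes none of those 7 genes passed, so their class differences described below were not called by this test. That does not show that the classes were equal. DESeq2 also put Kitl, Lepr, Csf1 and Tnfrsf11b past the threshold. The share of all genes that passed this DESeq2 test was not counted, so these 4 calls have no background. In the tests of single classes DESeq2 called 196 to 866 genes, where edgeR called 14 to 250. The Cxcl12 call rested partly on deep wells. Without the 31 wells that held over 2 times the median total, its adjusted p was 0.115.

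Set against the mean of the other classes on the log scale, Cxcl12 was higher in class 3 by a log2 fold change of 4.82 ± 0.48 (SE, adjusted p = 0.00503, edgeR). There it stood at 703 and 622 CPM, against a mean of 50.3 and 85.9 CPM in the other classes of the 2 animals. This was 1 of 8 factors called, where 0.359% of genes were called higher in class 3. It was higher in class 5 by 3.13 ± 0.50 (adjusted p = 0.0159, edgeR), where 1.1% of genes were called higher. Class 5 stood at 223 and 248 CPM, against an arithmetic mean of 130 and 148 CPM in the other classes. The fit averages the other classes on the log scale, and the chondrocyte-like class was near 0 (0.621 and 0.806 CPM). In chondrocyte-like wells Cxcl12 was lower, with a log2 fold change of -6.42 ± 0.98 (adjusted p = 0.0212, edgeR), where 0.337% of genes were called lower. Animal 1 alone gave 5.24 for class 3 and animal 2 alone 4.38. The class 3 call stood in all 12 alternatives run, with adjusted p-values of up to 0.0437. With clusters on 1000 variable genes, Cxcl12 was also called higher in the cluster matched to class 4, by 5.27. The calls in classes 5 and 1 were lost without the deep wells (adjusted p = 0.102 and 0.117, edgeR), and the class 1 call also with no filter on wells (0.102). No other factor was called in any of the 7 classes by edgeR, where 1.17, 0.205, 0.535, 0.103, 1.83, 0.455 and 0.909% of all genes were called in either direction in classes 1 to 7. Of the 56 pairs of a factor and a class, 20 had an unadjusted p under 0.05, and DESeq2 called 8. Among all 13635 genes, 1063 to 1803 had an unadjusted p under 0.05, depending on the class, and DESeq2 called 196 to 866.

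**Figure D3:**
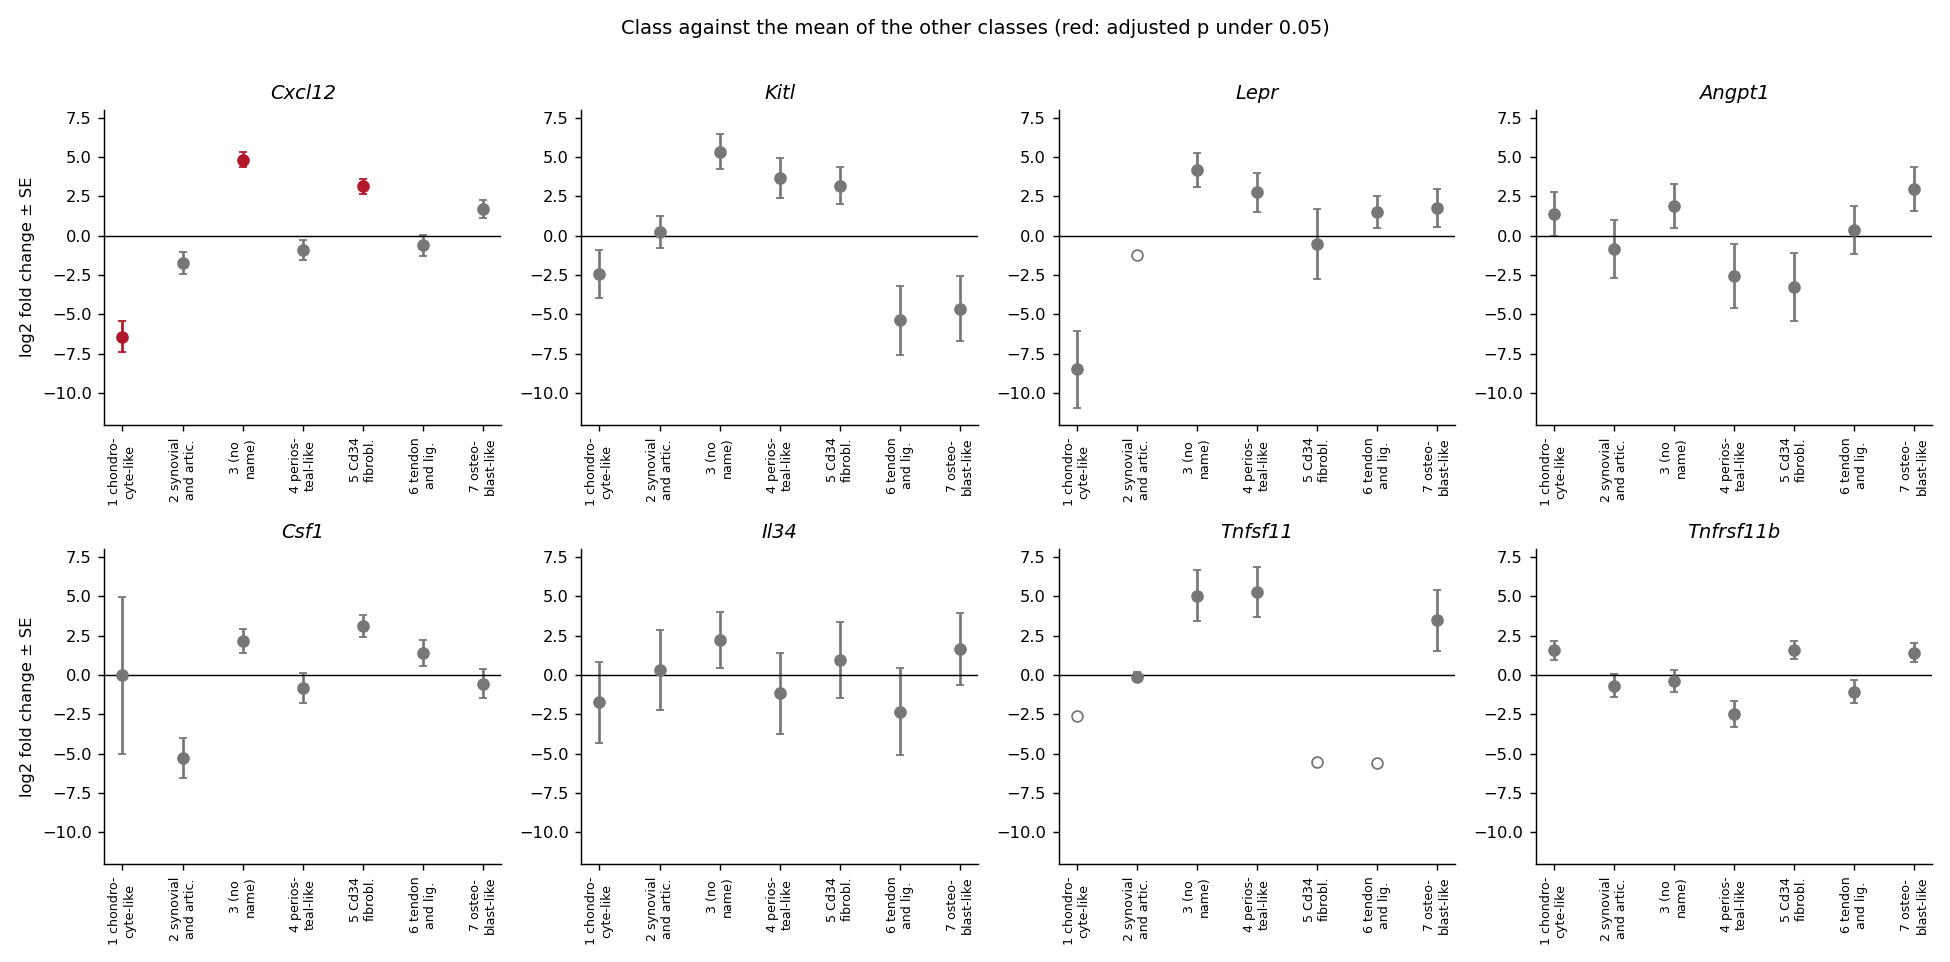
Log2 fold change ± SE of each class against the mean of the other classes (y axis) for the 7 classes tested (x axis), 1 panel per factor. Red points have an adjusted p under 0.05, and open points are fits of genes with few counts whose SE was too wide to draw. The red points are Cxcl12 in classes 1, 3 and 5.

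Each animal's plate was split into 4 quadrants, which gave 8 sets of wells. Cxcl12 was positive more often in class 3 than in the other wells of the same quadrant in 8 of 8 sets. The share ran between 25.0 and 60.0% of class 3 wells, against 2.94 to 17.2% of the other wells. Most blood-cell marker lists were at or near 0 in class 3 and outside it. The summed macrophage markers stood at 12.1 CPM in class 3, against 14.5 CPM in the other wells, and the neutrophil markers at 6.08 CPM, against 7.62 CPM. The summed osteoclast list was higher, at 227 CPM against 24.3 CPM, and Mmp9 was its only raised gene. The summed megakaryocyte and mast cell list was 33.0 CPM, against 7.14 CPM, with no gene raised. The part of these genes in the Cxcl12 result was not tested. The median depth of class 3 was 84401 counts per well in animal 1, the lowest of the 8 classes there, and 106954 in animal 2.

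Kitl was the factor that differed most between the animals. It was positive in 24 wells of animal 1 and in 6 wells of animal 2, and stood at 34.4 and 5.65 CPM over all wells. Pericyte and smooth muscle-like wells had the highest mean, with 207 CPM in animal 1 and 29.2 CPM in animal 2. Class 3 had 82.9 and 25.8 CPM, and the Cd34 fibroblast-like class 120 and 0.640 CPM. Class 5 was thus among the richest classes in animal 1 and nearly empty in animal 2. The periosteal-like class had 12.5 and 9.98 CPM. The osteoblast-like and the tendon and ligament-like classes held 0 positive wells of 32 and of 58. In class 3, 13 of 119 wells were positive, and the CPM of class 3 was above that of the other wells in 7 of 8 quadrant sets. The test of class 3 gave an adjusted p of 0.101 (edgeR), so Kitl was not called. DESeq2 and 3 other alternatives put it past the threshold there.

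Lepr lay mainly in class 3. It had 59.0 CPM in animal 1 and 35.9 CPM in animal 2 there, with 6 positive wells in each animal (12 of 119). The next class was periosteal-like at 3.16 and 25.6 CPM, followed by the osteoblast-like class at 27.4 and 0.419 CPM. Class 3 was above each of these in both animals, while the periosteal-like and osteoblast-like classes overlapped. Class 3 held 67.3% of all Lepr counts and 18.2% of the wells. The richest well carried 42.0% of the class 3 counts, and without it the share was 54.5%. No count of Lepr was found in the chondrocyte-like or the pericyte-like wells. The adjusted p for class 3 was 0.162 (edgeR), and none of its 12 alternatives passed the threshold.

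Angpt1 was not tied to class 3. The osteoblast and osteocyte-like class had the highest mean, at 26.4 CPM in animal 1 and 64.1 CPM in animal 2, with 6 of 32 wells positive. Class 3 followed at 20.7 and 31.9 CPM and the chondrocyte-like class at 25.0 and 12.5 CPM. The osteoblast-like class was above both of the others within each animal, though its range over the 2 animals overlapped that of class 3. Class 3 and the chondrocyte-like class changed order between the animals. Because chondrocyte-like wells were the most numerous, they held the largest share of Angpt1 counts (34.4%), followed by class 3 (30.9%) and the osteoblast-like class (21.3%). The Cd34 fibroblast-like class had 0 and 1.92 CPM and the periosteal-like class 4.50 and 0 CPM. The gene overlaps an antisense transcript (Gm17473), and whether the counting used strand is not given in the sources used here.

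Csf1, the growth factor of macrophages and osteoclast precursors, was highest in Cd34 fibroblast-like wells, at 75.6 CPM in animal 1 and 59.9 CPM in animal 2 (12 of 59 wells positive). Class 3 had 26.7 and 46.3 CPM, below class 5 in both animals. The tendon and ligament-like class had 54.2 CPM in animal 1 but 3.18 CPM in animal 2. Levels were lowest in the synovial and articular-like class, at 0.761 and 0.202 CPM, and no count was found in the 17 pericyte-like wells. Against the mean of the other classes the log2 fold change in class 5 was 3.10 ± 0.69 with an adjusted p of 0.0665 (edgeR), outside the threshold of 0.05. It was inside the threshold in 3 of 11 alternatives, namely DESeq2, thinned wells and the fit with all 8 classes. Classes 5 and 3 together held the larger part of Csf1 counts (34.4% and 32.6%).

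Il34, the other ligand of CSF1R, was positive in 6 wells of each animal, and a different class led in each. The pericyte-like class had 55.1 CPM in animal 1 and 5.83 CPM in animal 2, class 3 had 10.4 and 25.3 CPM, and the synovial and articular-like class 0.254 and 13.9 CPM. Within each animal class 3 was above classes 1, 2, 4, 5 and 6. In class 3 a single well gave 58.9% of the counts, and without it the class's share of all Il34 counts was 22.0% and not 40.8%. Il34 overlaps the antisense genes Gm15894 and Gm15895, and the second had 30 counts in the table against 579 for Il34.

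Tnfsf11, which encodes RANKL, was confined to few wells. It stood at 23.7 CPM in animal 1 and 6.26 CPM in animal 2 in class 3 (3 and 1 positive wells), and at 18.0 and 11.5 CPM in the periosteal-like class (2 and 1 positive wells). The osteoblast and osteocyte-like class had 11.8 and 0 CPM, all from 1 well. One more positive well was synovial and articular-like. Classes 3 and 4 overlapped, and together held 47.8% and 39.7% of all Tnfsf11 counts. No count was found in the Cd34 fibroblast-like (0 of 59), tendon and ligament-like (0 of 58) or pericyte-like (0 of 17) wells, and 2 counts in 157 chondrocyte-like wells. At 0 counts the limit in the Cd34 fibroblast-like class was 0.393 CPM. The place of the wells in class 3 depended on the clustering. With Ward clustering the cluster matched to class 3 held no Tnfsf11-positive well in either animal.

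Tnfrsf11b, which encodes the decoy osteoprotegerin, was spread over other classes. It had 56.6 CPM in animal 1 and 58.6 CPM in animal 2 in Cd34 fibroblast-like wells, 36.6 and 77.5 CPM in osteoblast and osteocyte-like wells and 46.0 and 58.3 CPM in chondrocyte-like wells. The ranges of these 3 classes overlapped. Within each animal the Cd34 fibroblast-like class was above the chondrocyte-like class, by a narrow margin in animal 2. Positive wells made up 20.3% (12 of 59), 21.9% (7 of 32) and 20.4% (32 of 157) of the 3 classes, in the order given. Class 3 had 22.7 and 11.6 CPM and the periosteal-like class 2.33 and 9.47 CPM, both below these 3 classes in both animals. No count was found in pericyte-like wells. Chondrocyte-like wells supplied 44.1% of all Tnfrsf11b counts with 24.0% of the wells, and no single well carried over 7.76% of that class's counts.

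**Figure D4:**
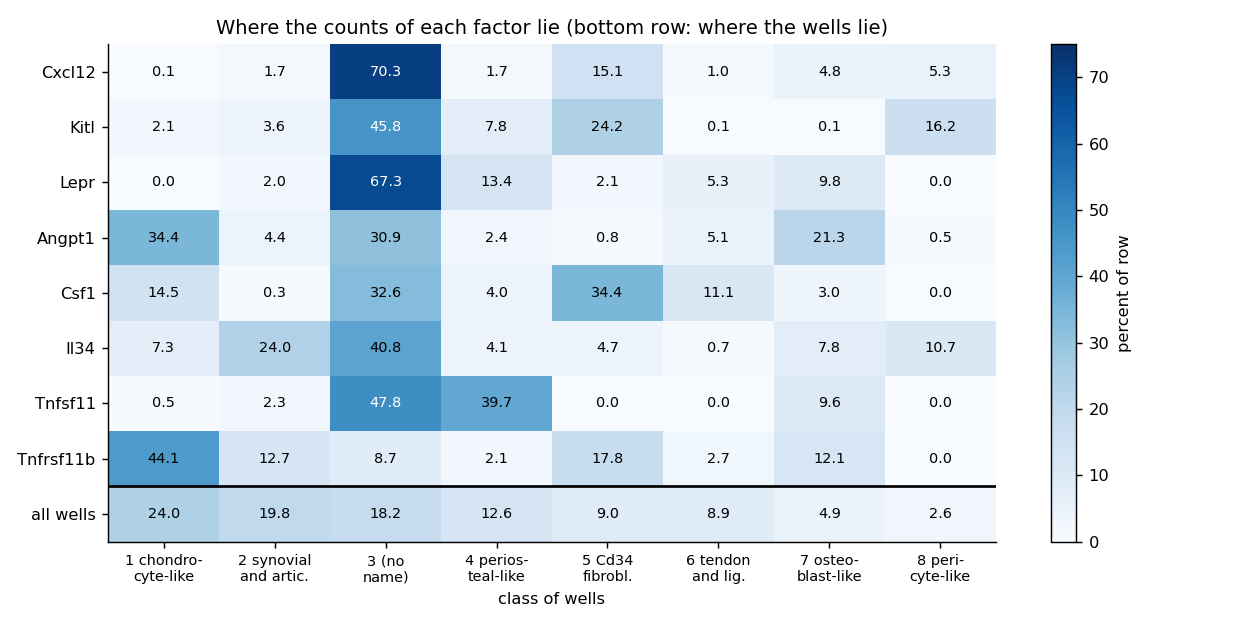
Percent of all counts of each factor (rows) that lie in each class of wells (columns), both animals together, with the percent of wells in the bottom row for comparison. Class 3 holds 70.3% of Cxcl12 and 67.3% of Lepr counts with 18.2% of the wells, and class 1 holds 44.1% of Tnfrsf11b counts.

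Tnfsf11 and Tnfrsf11b were next set beside each other. None of the 9 Tnfsf11-positive wells was Tnfrsf11b-positive, where 10.7% of the 644 other wells were. With so few Tnfsf11-positive wells, this does not show that the genes avoid each other. Only the class-to-class pattern of their count ratio is given, because counts of 2 genes of different length are not numbers of molecules. The log2 ratio of Tnfsf11 to Tnfrsf11b counts was 2.95 in animal 1 and 0.28 in animal 2 in the periosteal-like class and 0.06 and -0.90 in class 3. In the Cd34 fibroblast-like class it was at most -5.79 and -6.52, and in the chondrocyte-like class at most -7.21 and -7.76, with Tnfsf11 set to the floor of 3 counts per class and animal. The osteoblast-like class had -1.64 in animal 1 and at most -5.95 in animal 2. Classes 3 and 4 were above classes 1, 5 and 6 in both animals, but part of that order was lost at lower depth. After thinning, the periosteal-like class had at least 2.58 in animal 1 and at most -1.42 in animal 2. In animal 2 the chondrocyte-like, Cd34 fibroblast-like and tendon and ligament-like classes had at most -5.14, -3.32 and -1.22. These animal 2 values are all upper bounds, so class 4 could not be ordered against classes 1, 5 and 6 there. Without the richest well of each gene, animal 1 had 1.68 in class 3 and 1.05 in class 4.

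Several factors could be read in the same well. At least 1 factor was positive in 70.6% of pericyte-like, 66.1% of Cd34 fibroblast-like, 57.1% of class 3 and 16 of 32 osteoblast-like wells. The share was 26.8% of chondrocyte-like, 22.0% of periosteal-like, 20.7% of tendon and ligament-like and 14.0% of synovial and articular-like wells. These shares pool both animals. For the pericyte-like class it was 84.6% of 13 wells in animal 1 but 25.0% of 4 wells in animal 2. In animal 2 classes 3, 5 and 7 had 51.7%, 69.7% and 53.3%. In class 3, 25 of 119 wells (21.0%) were positive for 2 or more factors and the richest for 6. The share was 35.3% of pericyte-like wells (6 of 17), 18.6% of Cd34 fibroblast-like and 15.6% of osteoblast-like wells, and none of 129 synovial and articular-like wells held 2.

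Cxcl12-positive wells were set beside wells with no Cxcl12 count. Kitl was positive in 20.7% of Cxcl12-positive wells of animal 1 and 9.52% of animal 2, against 4.20% and 0.755% of Cxcl12-silent wells. Lepr was positive in 12.1% and 19.0% of Cxcl12-positive wells, against 2.10% and 0.755% of silent wells. For Csf1 the shares were 15.5% and 9.52%, against 2.52% and 4.53%. Tnfsf11, with few wells, was positive in 5.17% and 2.38%, against 0.840% and 0.755%. These 4 genes were more frequent beside Cxcl12 in both animals. That comparison pools the classes, and no chondrocyte-like well was Cxcl12-positive. Within class 3, Lepr was positive in 10 of 52 Cxcl12-positive wells and 2 of the other 67, Csf1 in 7 and 3, Kitl in 8 and 5, and Tnfsf11 in 4 and 0. In class 8 Kitl was positive in 6 of 11 Cxcl12-positive wells and 0 of the other 6. In class 4 Kitl was positive in 0 of 4 Cxcl12-positive wells and 4 of the other 78, and Tnfsf11 in 0 and 3. Within class 5 Csf1 went the other way, at 4 of 21 Cxcl12-positive wells (19.0%) and 8 of the other 38 (21.1%). Angpt1 was less frequent in animal 1 (3.45% against 5.88%) and more frequent in animal 2 (14.3% against 2.26%), so it showed no common direction. Tnfrsf11b was positive in 3.45% and 11.9% of Cxcl12-positive wells, against 10.9% and 11.3% of silent wells. Cxcl12-positive wells were deeper, with median totals of 104756 and 152317 counts, against 99711 and 112157 counts in silent wells. After thinning to 20000 counts the shares with at least 1 count were 24.1% and 9.52% for Kitl, against 5.96% and 0.755%, and 15.5% and 14.3% for Lepr, against 2.55% and 0.755%. For Csf1 in animal 2 they were 4.76%, against 4.15%. Ctsk itself was positive in 41 of the 100 Cxcl12-positive wells. By animal this was 36.2% and 47.6%, against 43.7% and 34.0% of silent wells, so Ctsk showed no common direction. Each well is 1 cell of 1 of 2 animals, so these shares are descriptions and were not tested.

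**Figure D5:**
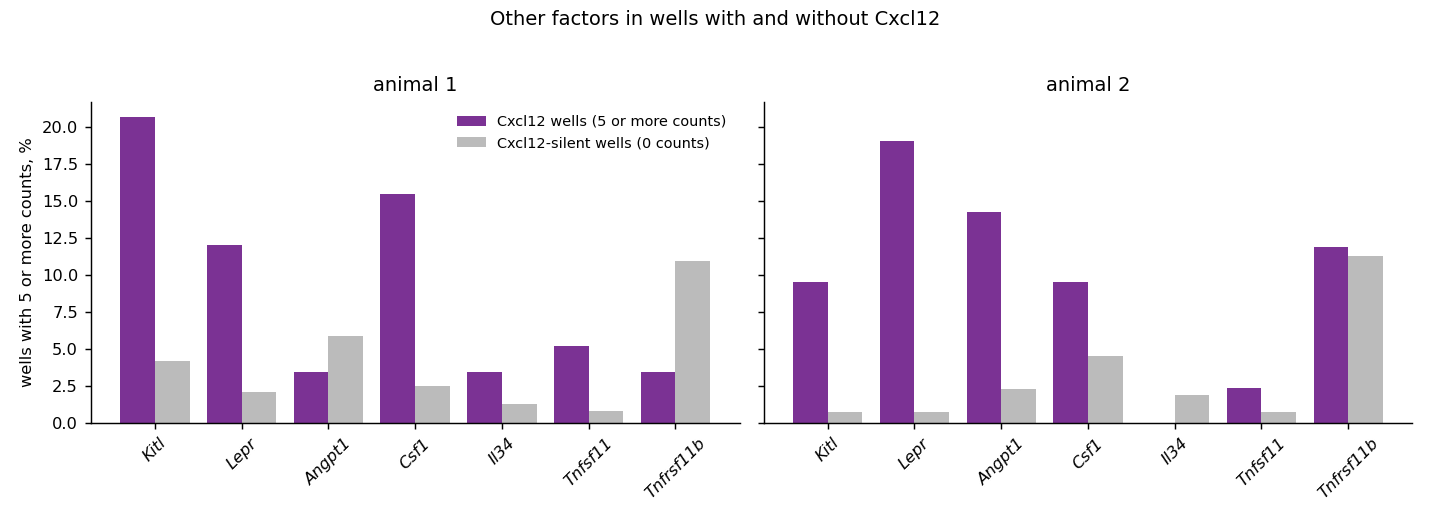
Percent of wells with at least 5 counts of 7 factors (y axis) in Cxcl12-positive wells (purple) and in wells with no Cxcl12 count (grey), 1 panel per animal. Kitl, Lepr, Csf1 and Tnfsf11 are more frequent in Cxcl12-positive wells of both animals (Lepr 12.1% and 19.0%, against 2.10% and 0.755%).

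The 17 pericyte and smooth muscle-like wells, 4 of them from animal 2, were too few for the test above. In an added fit with all 8 classes, chosen after seeing the data, Cxcl12 (log2 fold change 2.96 ± 0.55, adjusted p = 0.00852, edgeR) and Kitl (adjusted p = 0.0157) were higher in that class and Tnfrsf11b, at 0 counts, was lower (adjusted p = 0.0157). In that fit 6.99% of all genes were called for class 8.

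The signalling receptors of these factors were rare in the wells. Cxcr4, the CXCL12 receptor of blood cells, and Tnfrsf11a, which encodes the RANKL receptor RANK, were positive in 0 wells each. Csf1r was positive in 1 well, Kit in 5 and Tek in 6. Lep, which encodes leptin, was positive in 0 wells. By contrast Ackr3, a scavenger receptor of CXCL12, was positive in 101 wells and stood at 657 and 507 CPM in the Cd34 fibroblast-like class, above every other class in both animals. Lgr4, a second receptor of RANKL, was positive in 65 wells, Sdc1, which encodes the proteoglycan syndecan 1, in 124 and Ptprz1 in 8. Of the 11 receptors and ligands listed, 6 could be tested and 0 were called in any class by edgeR. Of their 42 pairs with a class, 4 had an unadjusted p under 0.05, and DESeq2 called Ackr3 in class 5. Over all 13635 genes, 1063 to 1803 had an unadjusted p under 0.05, depending on the class, and DESeq2 called 196 to 866.

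Of 20 other stromal niche genes, 17 were tested. Of their 119 pairs with a class, 35 had an unadjusted p under 0.05, edgeR called 5 and DESeq2 called 21. Of all 13635 genes, 1063 to 1803 had an unadjusted p under 0.05 by class, and DESeq2 called 196 to 866. In class 3 the chemokine gene Cxcl1 and the adhesion gene Vcam1 rose, where 0.359% of all genes were called higher. Cxcl1 had 411 and 371 CPM in class 3, against a mean of 65.4 and 92.9 CPM in the other classes (log2 fold change 4.25 ± 0.46, adjusted p = 0.00595, edgeR). Vcam1, which binds integrins of blood cells, had 109 and 58.5 CPM, against 10.2 and 21.8 CPM (adjusted p = 0.0191). The Vcam1 call was lost in 5 of 11 alternatives and that of Cxcl1 in 3 of 11. Class 8, which was outside the test, had more Cxcl1 than class 3, at 722 and 1413 CPM. Over the 11 of these genes with counts in each class the median log2 fold change in class 3 was 2.45, against 0.15 over all 9266 such genes. Cxcl1 was also higher in class 5 (217.7 and 290.2 CPM, against 97.7 and 106 CPM, adjusted p = 0.00666, edgeR), where 1.1% of genes were called higher. That call was lost in 3 of 10 alternatives. Cxcl1 was lower in class 7 (0.955 and 0.419 CPM, against 134 and 155 CPM, adjusted p = 0.0253, edgeR), where 0.367% of genes were called lower. Igf1 was lower in chondrocyte-like wells, at 20.3 and 7.26 CPM, against 458 and 481 CPM (adjusted p = 0.0303, edgeR). There 0.337% of genes were called lower, and the Igf1 call was lost in 2 of 11 alternatives.

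None of the 8 tested genes among 13 other osteoclast regulators in the table was called in any class by edgeR. Of their 56 pairs with a class, 8 had an unadjusted p under 0.05, and DESeq2 called 3 (Sema3a in classes 1 and 6, Wnt5a in class 2). Of all 13635 genes, 1063 to 1803 had an unadjusted p under 0.05, depending on the class, and DESeq2 called 196 to 866. The median of the regulators in class 5 was 1.93 on the log2 scale over 6 genes with counts in each class, against 0.00 over all such genes. Of 19 upstream receptors and transcription factors, Ebf1 and Ebf2 rose in the Cd34 fibroblast-like class, where 1.1% of all genes were called higher. No other gene of the list was called in any class by edgeR. The early B-cell factor genes Ebf1 and Ebf2 are known regulators of Cxcl12-rich marrow stroma in mice. Ebf1 had 239 and 266 CPM in class 5, against 31.3 and 30.0 CPM in the other classes (adjusted p = 0.00840, edgeR), and also stood at 132 and 125 CPM in class 3 and 433 and 218 CPM in class 8. Ebf2 had 81.4 and 77.6 CPM in class 5 (adjusted p = 0.0392) and 109 and 91.2 CPM in class 3, where edgeR did not call it. Of the 133 pairs of this list with a class, 27 had an unadjusted p under 0.05. DESeq2 called 15, Ebf1 and Ebf2 in class 3 among them. The Ebf2 call was lost in 2 of 10 alternatives.

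Of 5 proteases that cut these factors, Dpp4 and Mmp2 were called. Dpp4, a peptidase that inactivates CXCL12, was highest in class 5 at 99.2 and 88.1 CPM, against 3.94 and 2.32 CPM (adjusted p = 0.00200, edgeR). In class 5, 1.1% of genes were called higher. Dpp4 was also called higher in class 3, where 0.359% of genes were. There it had 23.0 and 13.4 CPM, against an arithmetic mean of 16.6 and 14.8 CPM in the other classes. The fit averages the other classes on the log scale, and apart from class 5 they were near 0. Mmp2 was higher in the periosteal-like class (log2 fold change 1.51 ± 0.19, adjusted p = 0.0412, edgeR), where 0.0953% of genes were called higher. It was also higher in the tendon and ligament-like class (1.24 ± 0.19, adjusted p = 0.0367, edgeR), where 0.352% were. Without the animal as a block both Mmp2 calls were lost (adjusted p = 0.0565 and 0.0684, edgeR).

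The genes whose log2 CPM ran most like a factor's over the 14 class sums are given as a description, since the sums share 2 plates and their depth. Picking the highest of all genes compared over only 14 sums favours high correlations by itself. For Cxcl12 the genes picked were Cfl1, Gm7676 and Dync1i2, with Pearson correlations of 0.95, 0.88 and 0.87. For Kitl they were Tpx2, Ccnb1 and Gng8 (0.88 to 0.86), for Lepr Tmem158, Map1b and Eif4g1 (0.84 to 0.82), and for Angpt1 Klhl24 and Hivep3 (0.85 and 0.84). For Csf1 they were Itgb3, Epn2 and Rps6ka3 (0.88 to 0.83), for Il34 Eci3, Vti1b and Zfp229 (0.85 to 0.82), for Tnfsf11 Tmem204, Proser3 and Sh3bgrl2 (0.90 to 0.89) and for Tnfrsf11b Lims2, Tbx5 and Nod1 (0.88 to 0.84).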

How the data were processed

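Single cells sorted from 2 littermate femur suspensions were reverse transcribed in wells with template switching, amplified, barcoded and pooled, per the labels' protocols. The deposited table holds whole-number counts per gene and well, made by the authors, with CASAVA and mm10 named in the submitters' processing notes. Whether duplicates were collapsed and strand used is not given in the sources used here. The 8 genes and the gene lists were chosen with earlier results of these data known.

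Wells with under 500 detected genes or over 20% mitochondrial counts were left out, which removed 5 wells with 26.7 to 94.2% mitochondrial counts. Summed over the 653 kept wells, the library of animal 1 had 35542100 counts and that of animal 2 had 42280920. The 8 quadrants reuse well barcodes (95 occur in more than 1 quadrant), so a well was told by plate, quadrant and barcode. No doublet caller was run, since cells were sorted singly. Classes came from 107 marker genes (18 lists, genes counted in at least 5 wells), centred within each animal and scaled over all wells. The clustering used 20 components, 15 neighbours and Leiden clustering at resolution 1. A marker counted as raised at a log2 ratio of at least 1 and in at least 10% of the class's wells.

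Counts were summed per class and animal. edgeR 4.0.16 (R 4.3.3) scaled the sums by TMM and fitted class with a block for animal to 13635 genes passing its expression filter, marker genes left out, with 6 residual degrees of freedom. All 8 factors passed the filter. The pairing comes from the animals, since each gave all of its own sums. The threshold was an adjusted p of 0.05. The SE of a fold change is its size over the square root of its F statistic, which is unstable where the fold change is near 0. Classes were made from the same wells, and the animals are littermates, so p-values set class differences against their variation between 2 littermates. The block takes out the overall difference between the animals. CPM is counts over total counts, unscaled. Share intervals are exact (Clopper-Pearson, 95%), and the floor for a count of 0 is 3 counts. The text names the 8 factors, listed genes past the threshold (at most 4 per list and class), the 3 genes most correlated with each factor (1 of them is not reported here) and each class's leading genes. The code was tested on simulated data. DESeq2 1.42.0, RLE scaling, other clusterings, thinning and other filters were alternatives.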

Additional observations from a re-analysis of the deposited data

How the results depend on the processing

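Across 95 alternative tests over all classes, 90 left each factor on its side of the threshold. Without the 31 deepest wells the adjusted p of Cxcl12 was 0.115, and after thinning it was 1.15e-05 (edgeR). DESeq2 put Kitl (0.000342), Lepr (0.0150), Csf1 (0.000462) and Tnfrsf11b (0.0256) past the threshold. The share of all genes past it in that DESeq2 test was not counted. The 3 calls of a factor in a class became 8 with DESeq2, 6 with clusters on 1000 variable genes, 5 after thinning, 1 without the deepest wells and 7 with all 8 classes (added after seeing the data). With the variable-gene clusters, Cxcl12 was called in the cluster matched to class 4 (log2 fold change 5.27) as well as in that matched to class 3 (4.63), so its place in class 3 alone depends on the clustering. Without the replicate block, Cxcl12 had an adjusted p of 0.00854 over all classes and the same 3 calls. Beyond the Mmp2 calls given above, the block changed no other call among the named results. With 1 animal left out no residual degrees of freedom remain, so those fold changes are values with no test (class 3 Cxcl12, 4.38 and 5.24).

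Counts of genes called moved by over 1.5 times as follows, in the order of classes 1 to 7. DESeq2 called 436, 232, 317, 196, 866, 633 and 853 genes, against 159, 28, 73, 14, 250, 62 and 124. Thinning gave 330, 99, 186, 52, 409, 132 and 260. RLE gave 96 in class 1 and 8 in class 4. Ward clustering gave 288, 75, 36 and 426 in classes 1, 2, 4 and 5. Variable-gene clusters gave 55, 255, 42 and 162 in classes 2, 3, 4 and 6. Resolution 0.5 gave 231 in class 3 and 0 in class 4. No filter on wells gave 51 in class 2 and 22 in class 4. All 8 classes gave 43 in class 2 and 45 in class 3. The cause was not tested. Classes without a mutual best match in another clustering have no value there. No fold change among the named results reversed. Tnfsf11 was positive in 9 wells and Il34 in 12, so single wells weigh heavily in their values.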
